A study of Rattus norvegicus with 9 samples.

Results

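The enzymes that build ceramide and turn it into the galactolipids of myelin were followed by their RNA in rat lumbar spinal cord after nerve injury. The genes are Sptlc1, Sptlc2, Degs1, Cers2, Cers6, Ugt8, Gal3st1, Fa2h and Galc, 9 of the 34890 loci of the expression table, each found once by its gene name. The rows were taken by gene name, and the set of genes was proposed with earlier results of these data known. The samples were L3 to L6 spinal cord tissue of wild-type Sprague Dawley rats, with 3 biological replicates in each of 3 groups. The JA group was sham-operated and received oral saline. The SNI group had spared nerve injury, in which of the branches of the sciatic nerve the tibial and common peroneal are tied and cut and the sural is left, and also received saline. The PLM group had the same injury and received oral paeoniflorin at 20.65 mg/mL with liquiritin. The labels of its replicates 1, 2 and 3 give liquiritin as 3.98, 3.99 and 3.100 mg/mL, whereas the study's methods describe a single dose for the whole group, the value on the label of replicate 1, so the replicates are not read here as dosed differently. Gavage lasted 21 days. The comparison of SNI with JA addresses the injury, that of PLM with SNI the treatment of injured rats, and that of PLM with JA how treated injured rats stood against uninjured ones. The 3 comparisons share groups with each other and are not independent. Values are TPM, a unit of transcript abundance that is scaled for gene length and to the same total in every sample, so levels of different genes can be compared but it keeps no sequencing depth, and the counting error is unknown.

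Ceramide is made in the endoplasmic reticulum. Serine palmitoyltransferase, whose subunits are encoded by Sptlc1 and Sptlc2, joins serine to a fatty acid, ceramide synthases such as Cers2 and Cers6 add an acyl chain, and the desaturase Degs1 completes the molecule. In oligodendrocytes, and in Schwann cells of peripheral nerve, Ugt8 adds galactose to give galactosylceramide and Gal3st1 adds sulfate to that to give sulfatide. Fa2h provides the hydroxylated fatty acids found as acyl chains in both lipids. Galc is the lysosomal enzyme that removes the galactose again and is lost in Krabbe disease. Galactosylceramide and sulfatide are among the main lipids of the myelin sheath.

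The samples carried oligodendrocyte RNA in every library. The summed level of 10 oligodendrocyte markers was 5153 to 5612 TPM in JA, 4898 to 5132 in SNI and 4759 to 5197 in PLM, and no marker of the list was at 0. Schwann cell RNA varied far more within each group than between groups. The summed level of 8 Schwann cell markers was 516, 66.5 and 6364 TPM in JA replicates 1, 2 and 3, 427, 3622 and 1239 TPM in SNI, and 187, 730 and 2671 TPM in PLM. The 13 protein genes of mitochondrial DNA also differed and took 29.1% ± 3.75 of all TPM in JA, 24.6% ± 1.303 in the SNI group and 32.0% ± 0.768 in the PLM group (SD, n = 3). The level of any other gene in TPM moves against this share, and the median log2 difference over all loci tested was 0.12 for SNI minus JA, -0.21 for PLM minus SNI and -0.10 for PLM minus JA. Each comparison is therefore given on the values as deposited and on values from which the median of the sample over all loci tested was subtracted, called median-centred below. In bulk tissue, fewer cells of a type and less RNA per cell cannot be told apart.

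Ugt8 and Fa2h were the most abundant of the 9 genes and Cers6 the least. Ugt8 had a mean of 315.6 TPM over the 9 samples (range 251 to 371), which put it at the 97.5th percentile of the loci tested. Fa2h followed with a mean of 194 TPM (159 to 223), below Ugt8 and above Degs1 in 9 of 9 samples. Degs1 with 116 TPM (99.4 to 136) and Cers2 with 115 TPM (98.4 to 134) were not separated, since Degs1 was the higher in 5 of 9 samples. Gal3st1 had 34.6 TPM (31.4 to 40.5), Sptlc2 27.2 (23.8 to 32.1), Sptlc1 21.04 (17.5 to 24.5) and Galc 11.6 (7.81 to 14.3). The ranges of Gal3st1 and Sptlc2, and of Sptlc2 and Sptlc1, overlapped over the 9 samples, but within every sample this order held. Cers6, which makes ceramide with shorter acyl chains than Cers2 does, had 0.736 TPM (0.32 to 1.09), and its mean was below the 1 TPM that was asked of a locus for testing. The other 8 genes passed that filter.

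**Figure D1:**
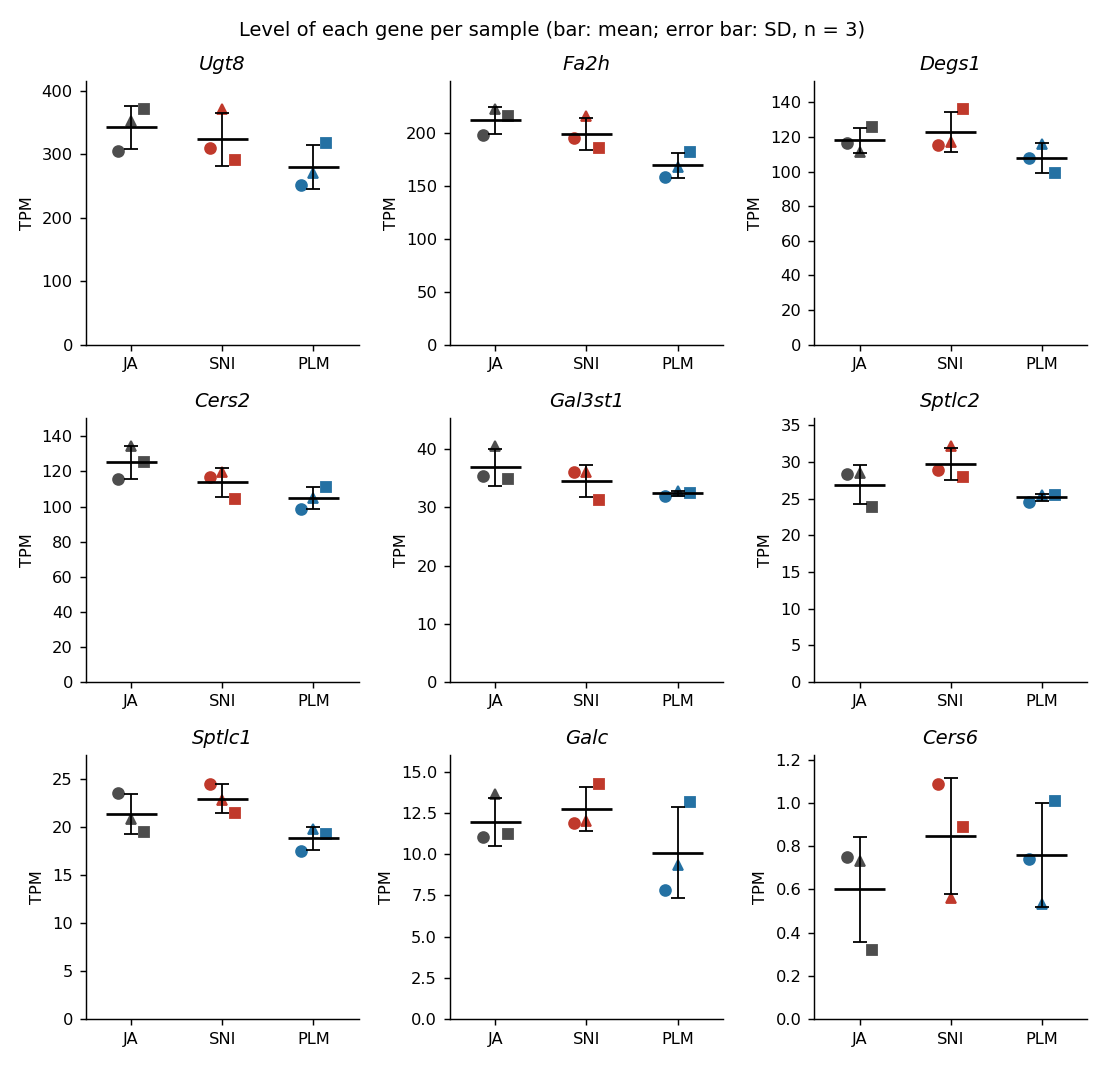
TPM of each of the 9 genes in the JA, SNI and PLM samples, on axes that start at 0, with circles, triangles and squares for replicates 1, 2 and 3, a bar for the group mean and an error bar for the SD (n = 3). The PLM samples of Sptlc1, Sptlc2 and Fa2h lie below all SNI samples, while the groups of Cers6 and Galc overlap.

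After nerve injury none of the genes passed the test for a change. Ugt8 had 305, 353 and 371 TPM in JA replicates 1, 2 and 3 and 310, 371 and 291 TPM in SNI. Fa2h had 198, 223 and 216 TPM in JA and 196, 216 and 186 TPM in SNI. Cers2, the synthase of the very long acyl chains that predominate in myelin lipids, had 116, 134 and 125 TPM in JA and 117, 120 and 105 TPM in SNI. The groups of these and of the other genes tested overlapped, 0 of 8 being separated beside 13.8% of all loci. As deposited, 4 of the 8 were below 0, beside 23.6% of all loci, and 4 above, with a median log2 difference (SNI minus JA) of -0.02 beside 0.12 over all 15557 loci tested. At an adjusted p under 0.05, limma with Benjamini-Hochberg adjustment called 0 of the 8 genes, and 0.0% of all loci, while 0 of the 8 and 7.1% of all loci had an unadjusted p under 0.05.

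On the median-centred scale 7 of the 8 genes had a difference below 0 in SNI, beside 51.4% of all loci, with a median of -0.14 beside -0.01, and limma called 0 of 8. Cers2 differed by -0.26 (95% confidence interval -0.51 to -0.004, limma adjusted p = 0.889), Gal3st1 by -0.21 (adjusted p = 0.889), Fa2h by -0.21 (adjusted p = 0.889) and Ugt8 by -0.21 (adjusted p = 0.889). These genes stood between the 9.4th and the 13.2th percentile of all loci, whereas Sptlc1, Sptlc2, Degs1 and Galc stood between the 34.0th and the 56.4th. Without JA replicate 1 the difference of Ugt8 was -0.33 and without JA replicate 3 it was -0.11. Of the 8 genes Cers2 was the 1 with an unadjusted p under 0.05, beside 4.83% of all loci. Structural myelin genes, a list of 18 of which 17 were tested, stood alongside, with 17 of 17 below 0, a median of -0.21, 6 with an unadjusted p under 0.05 and 0 called. Cell type markers also moved with these groups on the same scale, the 10 oligodendrocyte markers being among the structural myelin genes just given. The 11 neuron markers were all above 0 (median 0.24) and 9 of 11 astrocyte markers were (0.30), whereas 10 of 10 oligodendrocyte markers (-0.20), 7 of 9 microglia markers (-0.18, 3 with an unadjusted p under 0.05) and 4 of 4 endothelial markers (-0.20) were below 0. Limma called 0 of these markers, and their part in the result was not tested.

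In treated rats every gene tested had a lower mean in PLM than in SNI as deposited, but none was called, and the median difference was close to that of all loci. Sptlc1, the smaller of the main subunits of serine palmitoyltransferase, had 24.5, 22.9 and 21.5 TPM in SNI and 17.5, 19.8 and 19.3 TPM in PLM. Sptlc2, the subunit with the catalytic lysine, had 28.9, 32.1 and 28.02 TPM in SNI and 24.6, 25.5 and 25.5 TPM in PLM. Fa2h had 196, 216 and 186 TPM in SNI and 159, 168 and 182 TPM in PLM. For these 3 genes the highest PLM sample was below the lowest SNI sample, and 41.9% of all loci were separated in the same way. The log2 difference (PLM minus SNI) was -0.27 for Sptlc1 (95% interval -0.47 to -0.08, limma adjusted p = 0.0674), -0.23 for Sptlc2 (adjusted p = 0.0754) and -0.23 for Fa2h (adjusted p = 0.0948).

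The remaining genes of the group overlapped between SNI and PLM. Ugt8 had 251, 270 and 318 TPM in PLM against 310, 371 and 291 in SNI, a log2 difference of -0.21 (adjusted p = 0.248) that was -0.11 without SNI replicate 2. Degs1 had 115, 117 and 136 TPM in SNI and 108, 116 and 99.4 TPM in PLM. Of the genes tested, Galc varied most among the treated samples, with 7.81, 9.33 and 13.2 TPM in PLM and 11.9, 12.02 and 14.3 TPM in SNI, and its log2 difference of -0.33 had an interval of -0.77 to 0.10. Without PLM replicate 1 the difference of Galc was -0.18 (limma adjusted p = 0.504) and without PLM replicate 3 it was -0.52 (adjusted p = 0.0676). Gal3st1 was close together in PLM, at 32.0, 32.8 and 32.5 TPM, and had 36.1, 36.1 and 31.4 TPM in SNI. The difference was below 0 for 8 of 8 genes, beside 85.0% of all loci, and its median was -0.22 beside -0.21 over all 15474 loci. At the adjusted threshold limma called 0 of 8 genes beside 13.9% of all loci, at the unadjusted threshold 3 of 8 beside 37.1%, and 0 of 8 passed the study's own thresholds of p under 0.05 with an absolute log2 difference above 1, beside 1.65% of all loci.

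Once the samples were median-centred, the differences scattered around 0. The median of the 8 genes was 0.03 beside 0.04 for all loci, 2 of the 8 were below 0 beside 42.4% of all loci, and limma called 0 of 8 with 0 at an unadjusted p under 0.05, beside 0.814% and 16.9% of all loci. Sptlc1 and Sptlc2 differed by -0.02 and 0.02, and Fa2h by 0.02 with an interval of -0.16 to 0.19. Gal3st1 and Cers2 turned to the other side and their PLM samples were all above the SNI samples, as were 14.4% of all loci. Their log2 differences on this scale were 0.16 for Gal3st1 (interval -0.004 to 0.33, adjusted p = 0.303) and 0.13 for Cers2 (interval -0.02 to 0.28, adjusted p = 0.351). The widest interval of the 8 genes was that of Galc, from -0.48 to 0.31, and the narrowest that of Cers2. The structural myelin genes stood at a median of 0.15 on this scale, with 1 of 17 below 0, 9 with an unadjusted p under 0.05 and 0 called by limma. Marker RNA of several cell types also moved with these groups. The 11 astrocyte markers summed to 3074 to 3408 TPM in SNI and 1500 to 1813 TPM in PLM (JA 1823 to 3542), the 6 blood markers to 4118 to 7266 TPM in SNI and 8007 to 11179 TPM in PLM (JA 5388 to 11911), and no marker of either list was at 0. Limma called 10 of the 11 astrocyte markers lower as deposited, beside 13.6% of all loci. After centring it called 8 of 11 lower, with a median difference of -1.04, beside 0.814% of all loci called. The 8 Schwann cell markers (median -0.41) and the 4 meningeal and fibroblast markers measured (-0.42) were all below 0 after centring, with 0 called. On the centred scale the mean log2 level of the 10 oligodendrocyte markers was 8.001 to 8.06 in SNI and 8.15 to 8.23 in PLM, that of the 9 microglia markers 4.92 to 5.02 and 5.14 to 5.26, and that of the 4 endothelial markers measured 5.12 to 5.305 and 5.51 to 5.56, so that the PLM samples lay above the SNI samples for each, and none of these markers was at 0. The part of these cell types in the result was not tested.

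**Figure D2:**
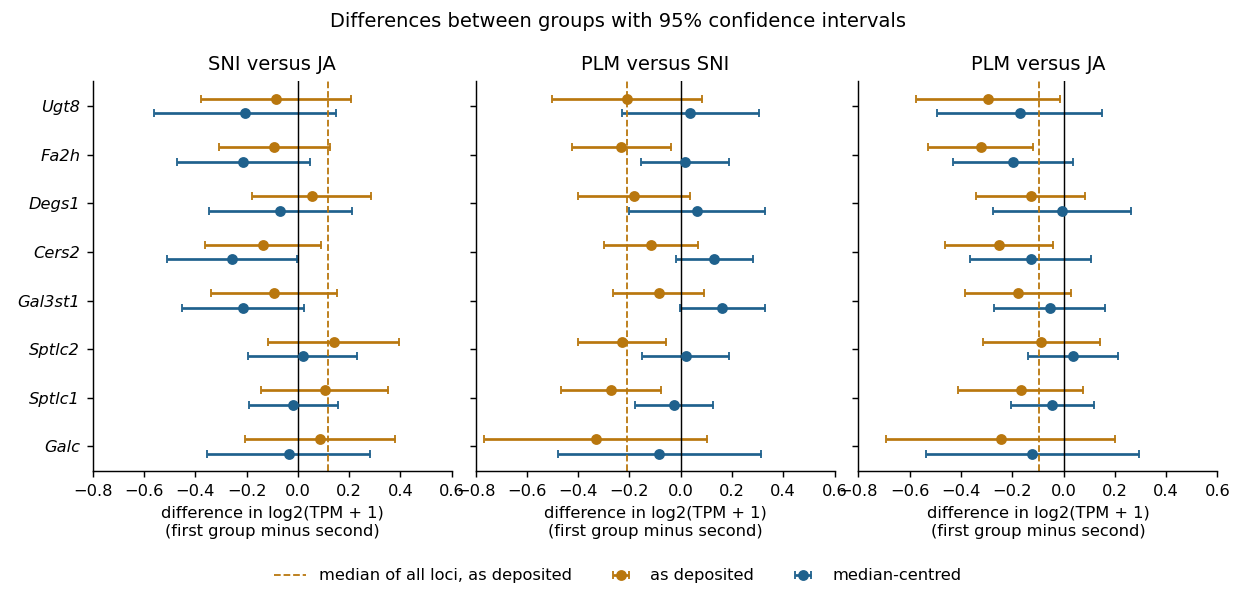
Differences in log2(TPM + 1) between groups for the 8 genes tested, with 95% confidence intervals from limma, as deposited (ochre) and median-centred (blue), and the median of all loci as deposited as a dashed line. In PLM versus SNI the ochre points scatter around the dashed line at -0.21 and the blue points around 0.

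Against sham-operated rats, the treated rats had lower means of all 8 genes as deposited and the groups of Fa2h, Cers2 and Gal3st1 did not overlap. Fa2h had 198, 223 and 216 TPM in JA and 159, 168 and 182 TPM in PLM. Its mean of 170 ± 11.8 TPM in PLM stood against 212 ± 12.8 TPM in JA (SD, n = 3), a log2 difference (PLM minus JA) of -0.32 (95% interval -0.53 to -0.12, limma adjusted p = 0.342). Cers2 (98.4, 105.0 and 111 TPM in PLM against 116, 134 and 125 in JA) and Gal3st1 (32.0, 32.8 and 32.5 TPM in PLM against 35.3, 40.5 and 34.8 in JA) were the others separated, as were 15.7% of all loci in this direction. The difference was -0.25 for Cers2 (adjusted p = 0.386), -0.18 for Gal3st1 (adjusted p = 0.489) and -0.29 for Ugt8 (interval -0.58 to -0.01, adjusted p = 0.412), for which PLM replicate 3 with 318 TPM lay within the range of JA. That of Gal3st1 was -0.11 without JA replicate 2 and -0.22 without JA replicate 3. All 8 differences were below 0, beside 71.2% of all loci, their median was -0.21 beside -0.10 over all 15349 loci, and limma called 0 of 8 genes beside 0.0195% of all loci, with 3 of 8 at an unadjusted p under 0.05 beside 11.8%. After centring, 7 of 8 differences were below 0 (43.7% of all loci) with a median of -0.09, all groups overlapped, limma called 0 of 8 genes (0.013%), 0 of 8 had an unadjusted p under 0.05 (9.98% of all loci), and Fa2h differed by -0.20 (interval -0.43 to 0.04, adjusted p = 0.54). Astrocyte markers moved with these groups as deposited, with 11 of 11 below 0, a median of -0.94 and 8 with an unadjusted p under 0.05. The 4 meningeal and fibroblast markers measured had a median of -1.01 with 4 of 4 below 0, and the neuron markers had 9 of 11 above 0 with a median of 0.27. The oligodendrocyte markers had 9 of 10 below 0 with a median of -0.12, close to the -0.10 over all loci. After centring 5 of the 10 were below 0, with a median of 0.002. Limma called 0 of these markers, and their part in the result was not tested.

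Cers6 was too low for the main test. It had 0.75, 0.73 and 0.32 TPM in JA, 1.09, 0.56 and 0.89 TPM in SNI and 0.74, 0.53 and 1.01 TPM in PLM, and the 3 groups overlapped. In a fit without a filter on low values its log2 differences as deposited were 0.21 (SNI minus JA, adjusted p = 0.728), -0.07 (PLM minus SNI, adjusted p = 0.799) and 0.14 (PLM minus JA, adjusted p = 0.778). After centring they were 0.09, 0.18 and 0.26 in the same order (limma adjusted p = 0.879, 0.505 and 0.546), so that PLM minus SNI changed sign. On the log2(TPM + 1) scale the change of a gene this low is understated.

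Ratios between the levels of these genes within a sample were also compared, since they need no scaling between samples. Of TPM for ceramide galactosylation and its reversal, Ugt8 exceeded Galc 25.9- to 33.1-fold in JA, 20.4- to 30.9-fold in SNI and 24.2- to 32.2-fold in PLM. Cers2 exceeded Cers6 154- to 391.7-fold in JA, 107- to 214-fold in SNI and 110.0- to 198-fold in PLM, a spread that rests on the low values of Cers6. Fa2h stood at 0.583 to 0.649 of Ugt8 in JA, 0.583 to 0.640 in SNI and 0.573 to 0.632 in PLM. Sptlc1 stood at 0.733 to 0.831, 0.711 to 0.849 and 0.712 to 0.777 of Sptlc2 in JA, SNI and PLM. For these, for Gal3st1 over Ugt8 and for Degs1 over Sptlc2, the groups overlapped in each of the 18 tests, and the smallest exact two-sided permutation p was 0.3 (adjusted over the 18 tests 0.953), where 3 samples against 3 cannot go below 0.1.

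The ratio of Gal3st1 to Ugt8 was lower in samples with more Schwann cell RNA by Pearson's r, but not by rank after adjustment, and most of the fits with 1 sample left out lost the call. Gal3st1 over Ugt8 was 0.116, 0.115 and 0.0939 in JA replicates 1, 2 and 3, 0.116, 0.0974 and 0.108 in SNI, and 0.127, 0.121 and 0.102 in PLM. In each group the lowest ratio belonged to the replicate with the most Schwann cell marker RNA, which was replicate 3 of JA, 2 of SNI and 3 of PLM. Over the 9 samples the log2 ratio had a Pearson r of -0.88 with the mean log2 level of the Schwann cell markers (exact permutation p = 0.0023, 0.0323 adjusted over 14 relations) and a Spearman rho of -0.78 (exact p = 0.0172, adjusted 0.241). The r was -0.94 without the 2 samples farthest from the median in Schwann markers and -0.94 within groups. Leaving out 1 sample kept r between -0.96 and -0.81, but the adjusted exact p was above 0.05 in 7 of these 9 cases, namely without JA replicate 1 (0.0938) or 3 (0.21), SNI replicate 1 (0.0875), 2 (0.0899) or 3 (0.074), or PLM replicate 1 (0.084) or 3 (0.0917).

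Fa2h over Ugt8 showed the same samples at the low end. It was 0.649, 0.632 and 0.583 in JA, 0.633, 0.583 and 0.640 in SNI, and 0.632, 0.622 and 0.573 in PLM, so that the 3 samples highest in Schwann cell markers lay between 0.573 and 0.583 and the other 6 between 0.622 and 0.649. Its Pearson r with the markers was -0.81 (exact permutation p = 0.011, adjusted 0.077; -0.83 without the 2 farthest samples and -0.84 within groups) and its Spearman rho was -0.55 (exact p = 0.133, adjusted 0.867), so the relation did not pass adjustment. None of the 8 genes by itself was related to the markers after adjustment, with r from -0.31 for Sptlc2 to 0.50 for Ugt8 (exact permutation p = 0.172, adjusted 0.713), and neither were the other 4 ratios. Without the 2 farthest samples r was 0.79 for Ugt8 and 0.72 for Galc, and within groups it was 0.65 for Ugt8 and 0.26 for Galc. These relations were looked for after the values had been seen. Without the sample highest in Schwann cell markers in each group, which leaves 2 against 2, limma again called 0 of 8 genes in every comparison on both scales, and the log2 difference of Galc in PLM minus SNI went from -0.33 to -0.56 as deposited (adjusted p = 0.0949).

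**Figure D3:**
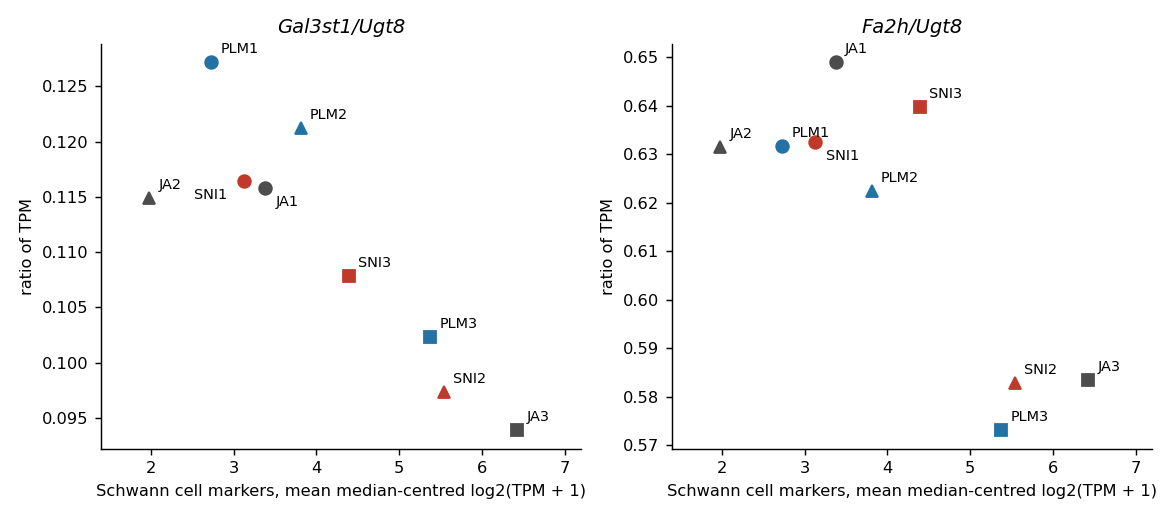
Ratio of Gal3st1 to Ugt8 TPM (left) and of Fa2h to Ugt8 TPM (right) against the mean median-centred log2(TPM + 1) of 8 Schwann cell markers in the 9 samples, coloured by group and named by group and replicate. JA replicate 3, SNI replicate 2 and PLM replicate 3 have the highest marker level and the lowest ratio in both panels; neither vertical axis starts at 0.

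Fa2h and Ugt8 varied together over the 9 samples, as did Cers2 with Gal3st1, Fa2h and Ugt8, and on the median-centred scale no pair with a gene of the ceramide backbone passed the test. Of the 28 pairs among the 8 genes, 4 passed an exact permutation test of Pearson's r on the median-centred scale after adjustment over the 28 pairs. Fa2h and Ugt8 had r = 0.95 (exact permutation p = 1.93e-05, adjusted 0.00054) and rho = 0.95 (exact p = 0.000353, adjusted 0.00988), and r was 0.94 without the 2 farthest samples and 0.97 within groups. Cers2 and Gal3st1 had r = 0.91 (exact permutation p = 0.000444, adjusted 0.00621) and rho = 0.93 (exact p = 0.00075, adjusted 0.0105), with 0.89 without the 2 farthest samples and 0.84 within groups. Cers2 also followed Fa2h (r = 0.91, exact permutation p = 0.00152, adjusted 0.0119; rho = 0.80, exact p = 0.0138, adjusted 0.0774) and Ugt8 (r = 0.85, exact p = 0.00169, adjusted 0.0119; rho = 0.88, exact p = 0.00308, adjusted 0.0287). These last 2 relations fell to 0.63 and 0.63 without the 2 farthest samples and rest in part on them. Gal3st1 had r = 0.72 with Fa2h (exact p = 0.0287, adjusted 0.161; rho = 0.70, exact p = 0.0433) and r = 0.61 with Ugt8 (exact p = 0.0838, adjusted 0.391; rho = 0.82, exact p = 0.0108), neither past adjustment.

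Among the backbone genes Sptlc1 and Sptlc2, whose products form 1 enzyme, had r = -0.06 on the median-centred scale (exact permutation p = 0.866, adjusted 0.955; rho = -0.02). As deposited, a scale on which all genes share the shift of the sample, they had r = 0.80 (exact permutation p = 0.00985, adjusted 0.046; rho = 0.83, exact p = 0.00827, adjusted 0.0579), with 0.82 without the 2 farthest samples and 0.57 within groups. This pair and Fa2h with Gal3st1 (r = 0.79, exact p = 0.00971, adjusted 0.046; rho = 0.77, exact p = 0.0214, adjusted 0.0998; 0.81 without the 2 farthest samples) passed as deposited beside the 4 pairs above. No pair with Sptlc1, Sptlc2, Degs1 or Galc passed on the median-centred scale. Leaving out JA replicate 2 left 1 pair past adjustment (Fa2h and Ugt8), with r = 0.87 for Cers2 and Fa2h, 0.85 for Cers2 and Ugt8 (adjusted exact p = 0.0567 for each) and 0.85 for Cers2 and Gal3st1 (0.0727). Leaving out SNI replicate 3 left 2 (the same pair and Cers2 with Gal3st1), with r = 0.91 for Cers2 and Fa2h and 0.82 for Cers2 and Ugt8 (adjusted exact p = 0.0554 for each). All 9 samples carry oligodendrocyte RNA in differing amounts, and its part in these correlations was not tested.

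**Figure D4:**
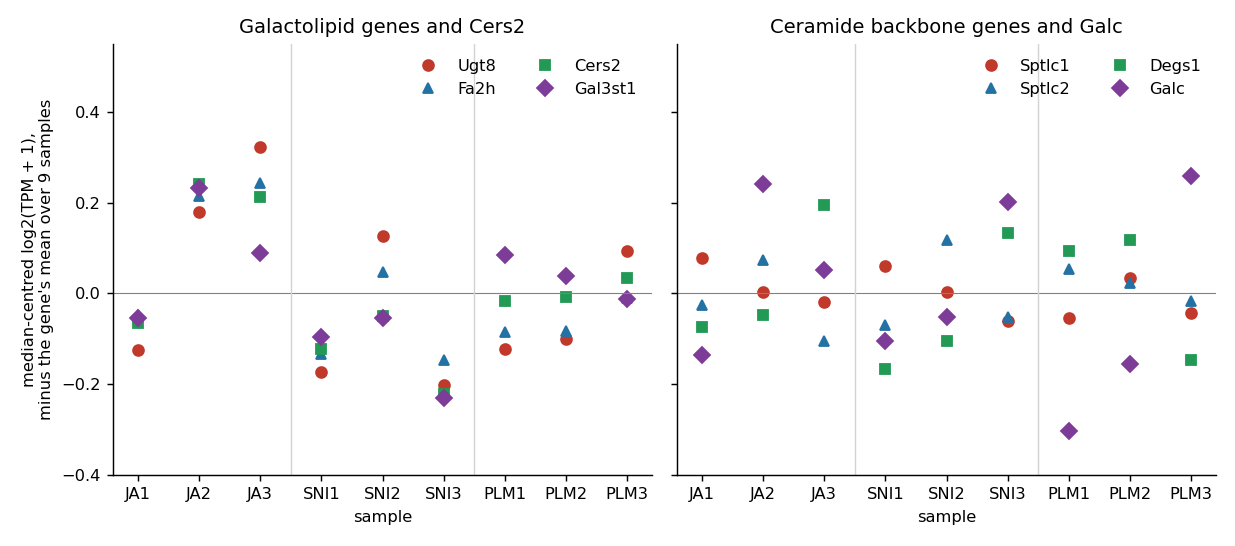
Median-centred log2(TPM + 1) of each gene in each sample, minus the mean of the gene over the 9 samples, for Ugt8, Fa2h, Cers2 and Gal3st1 (left) and for Sptlc1, Sptlc2, Degs1 and Galc (right). In the left panel the 4 genes are above their means in JA replicates 2 and 3, while in the right panel the genes of these samples lie on both sides of their means.

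The genes most like the galactolipid arm were searched over the 9803 named loci whose mean reached 5 TPM. The locus with the highest Pearson r to the mean of Ugt8, Gal3st1 and Fa2h over the 9 samples was Gltp (r = 0.98), the glycolipid transfer protein. Gltp had 145, 172 and 155 TPM in JA, 149, 156 and 135 TPM in SNI and 120, 127 and 139 TPM in PLM. Inf2 (0.97), Epb41l2 (0.95), Cxcl16 (0.95) and Tlcd3a (0.94) came next. The structural myelin genes had a median r of 0.66 with this arm, from 0.38 to 0.93, beside -0.08 over all candidates. For the mean of Sptlc1, Sptlc2 and Degs1 the highest values were those of Zadh2 (0.98), Qars1 (0.92), Oser1 (0.91), Mir1839 (0.89) and Cd164l2 (0.89), and the structural myelin genes had a median of 0.25. These are the upper ends of a search over many loci in 9 samples and are given as a description without a test.

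The promoters of Ugt8, Fa2h, Cers2 and Gal3st1 are shown because the 4 pairs past adjustment in the correlations above lie among these genes. Windows of 250 bases before to 50 bases after the annotated start were taken from the RefSeq annotation of the rat build GRCr8 and are printed 5′ to 3′ on the strand of the gene, with the GC box letters GGGCGG or their reverse complement CCGCCC in capitals. Windows were found for 9 of the 9 genes. The window of Ugt8 is chr2:217007118-217007417 on the minus strand, that of Fa2h chr19:56273431-56273730 on the minus strand, that of Cers2 chr2:185579261-185579560 on the plus strand and that of Gal3st1 chr14:83094135-83094434 on the plus strand.
Ugt8: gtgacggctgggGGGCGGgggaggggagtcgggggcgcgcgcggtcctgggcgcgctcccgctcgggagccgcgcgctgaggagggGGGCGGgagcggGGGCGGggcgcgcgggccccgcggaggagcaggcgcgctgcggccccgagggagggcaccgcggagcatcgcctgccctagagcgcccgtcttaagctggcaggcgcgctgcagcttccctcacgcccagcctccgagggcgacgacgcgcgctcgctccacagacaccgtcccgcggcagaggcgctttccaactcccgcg
Fa2h: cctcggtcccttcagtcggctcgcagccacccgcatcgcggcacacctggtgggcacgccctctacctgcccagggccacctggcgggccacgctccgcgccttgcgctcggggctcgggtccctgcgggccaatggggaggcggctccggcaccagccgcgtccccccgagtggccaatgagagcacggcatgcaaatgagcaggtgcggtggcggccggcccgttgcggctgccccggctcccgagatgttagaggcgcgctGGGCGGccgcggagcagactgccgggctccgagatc
Cers2: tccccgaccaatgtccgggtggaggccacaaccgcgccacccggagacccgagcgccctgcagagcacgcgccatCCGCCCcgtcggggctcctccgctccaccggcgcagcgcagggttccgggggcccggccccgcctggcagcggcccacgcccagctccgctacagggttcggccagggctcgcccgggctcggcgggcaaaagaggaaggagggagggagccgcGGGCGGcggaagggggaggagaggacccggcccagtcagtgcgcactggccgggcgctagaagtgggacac
Gal3st1: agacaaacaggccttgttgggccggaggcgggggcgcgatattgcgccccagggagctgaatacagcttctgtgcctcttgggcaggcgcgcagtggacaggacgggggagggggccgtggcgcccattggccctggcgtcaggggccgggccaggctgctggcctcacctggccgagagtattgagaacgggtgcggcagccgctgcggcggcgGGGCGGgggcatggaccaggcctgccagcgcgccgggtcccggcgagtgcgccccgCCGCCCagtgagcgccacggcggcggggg

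The GC box letters were found on either strand 3 times in the window of Ugt8, 2 times in those of Cers2 and Gal3st1 and 1 time in that of Fa2h. Over all 9 genes 7 windows held them, all but those of Cers6 and Galc, beside 33.1% of 33469 windows of the same length. The CCAAT box, searched as CCAAT or ATTGG, was in 5 of the 9 windows, with 5 matches in Sptlc2, 2 in Fa2h and 1 each in Cers2, Gal3st1 and Cers6, beside 37.5% of all windows. TATAAA or TTTATA was in none of the 9 (14.2% of all windows), and ACAAAG or CTTTGT, the core letters bound by SOX factors, was in that of Sptlc1 alone (18.8%). No match overlapped a match of another motif. The windows of the 9 genes had a GC content of 57.3% to 79.3%, beside a median of 51.7% over all windows. A match is a description of letters only, and GC boxes were present in genes of both the galactolipid and the ceramide backbone arm.

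The other genes of the pathway were followed in 5 lists, with 48 genes tested. In SNI versus JA limma called 0 of them on either scale, with 5 at an unadjusted p under 0.05 as deposited (7.1% of all loci) and 1 after centring (4.83% of all loci). In PLM versus JA it also called 0, with 10 at that threshold as deposited (11.8% of all loci) and 5 after centring (9.98% of all loci). In PLM versus SNI as deposited, limma called lower 2 of 7 genes tested in the supply of the ceramide backbone, 3 of 9 among other ceramide synthases and enzymes of acyl chain elongation, 3 of 14 in sphingomyelin and ceramide turnover, 3 of 6 in galactolipid breakdown and transfer, 3 of 12 in glucosylceramide and ganglioside metabolism and, outside the pathway, 1 of 17 structural myelin genes (Gjb1), beside 13.6% of all loci. The list medians were -0.20, -0.31, -0.25, -0.29, -0.23 and -0.10, beside -0.21 over all loci. No gene called here was called on the median-centred scale.

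Examples from these lists were chosen after their values had been seen. Ormdl3, an inhibitor of serine palmitoyltransferase, had 48.4, 44.3 and 47.4 TPM in SNI and 31.3, 32.1 and 32.0 TPM in PLM, a log2 difference of -0.54 as deposited (adjusted p = 0.00787) and -0.29 after centring (adjusted p = 0.0978). Kdsr, the reductase that acts after serine palmitoyltransferase, had 20.5, 22.5 and 22.5 TPM in SNI and 14.8, 15.2 and 17.7 TPM in PLM (-0.44, adjusted p = 0.0317, and -0.19, adjusted p = 0.303, after centring). In galactolipid breakdown, Psap, the precursor of the saposins, differed by -0.39 (adjusted p = 0.0166) and Arsa, the lysosomal enzyme that removes the sulfate of sulfatide, by -0.32 (adjusted p = 0.0336), and after centring by -0.14 (adjusted p = 0.354) and -0.07 (adjusted p = 0.608). Degs2, the relative of Degs1 that makes phytoceramides, was the 1 gene of the lists called on the median-centred scale. It had 9.96 to 10.3 TPM in the 3 SNI samples and 11.3, 11.95 and 13.6 TPM in PLM, with a log2 difference of 0.50 after centring (limma adjusted p = 0.0451) and 0.26 as deposited (adjusted p = 0.0845). The centred call was lost in each of the 6 fits with 1 sample left out (limma adjusted p 0.0955 to 0.158), in the fit of all 9 samples (0.127), with the replicate block (0.182), without a filter (0.067) and without the samples highest in Schwann cell markers (0.214). It held with a pseudocount of 0.1 (0.0421) and the filter of 5 TPM (0.0311). Quantile normalization of the values as deposited also gave a call (0.043, log2 difference 0.50), whereas rescaling without mitochondrial genes did not (0.0804, log2 difference 0.40). The centred difference of Degs2 stayed between 0.46 and 0.53 with 1 sample left out. Of the calls as deposited, only the 5 of Ormdl3, Psap, Kdsr, Gjb1 and Arsa were followed under the alternatives. With 1 sample left out that of Ormdl3 held in 6 of 6 fits, that of Psap in 2, those of Kdsr and Gjb1 in 1 each and that of Arsa in 0. With the replicate block all 5 were lost (0.075 for Ormdl3, 0.109 to 0.145 for the others), as they were without the samples highest in Schwann cell markers (0.067 to 0.0993). In these 2 fits the log2 difference was -0.54 and -0.58 for Ormdl3 and -0.39 and -0.43 for Psap. In the fit of all 9 samples Ormdl3 (0.0488) and Psap (0.047) passed. After quantile normalization Psap alone of the 5 passed (0.0453; Ormdl3 0.0536) and without mitochondrial genes Ormdl3 alone (0.025). Degs1 itself differed by 0.06 after centring (adjusted p = 0.807).

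Set against the oligodendrocyte markers, Fa2h was the 1 gene of the 8 tested whose PLM samples lay below both other groups. Its log2 level minus the mean log2 level of the 10 markers was -0.55, -0.51 and -0.40 in JA, -0.54, -0.41 and -0.56 in SNI and -0.72, -0.63 and -0.60 in PLM. The difference was -0.15 for PLM minus SNI and -0.17 for PLM minus JA and is given without a test, since Fa2h is singled out here for this separation. The markers themselves stood higher in PLM than in SNI on the centred scale, with 9 of 10 above 0 and a median difference of 0.17, where Fa2h differed by 0.02. As deposited the markers had a median of -0.08, with 7 of 10 below 0, and Fa2h differed by -0.23. Which side of the difference moved thus depends on the scale and cannot be read from it. Against JA the markers had a median of 0.002, with 5 of 10 below 0, and Fa2h differed by -0.20. Relative to the markers, 27.9% of all loci had PLM samples below all SNI samples and 4.4% had PLM samples below all JA samples. The share of all loci below both groups was not counted, so the separation of Fa2h from both is not read as particular to it. Sptlc1 and Sptlc2 were also separated from SNI, and Sptlc2 was higher in SNI than in JA, as were 20.4% of all loci. With the structural myelin genes as reference the differences of Fa2h were -0.17 and -0.18, and Cers2 was then separated from JA too, beside 4.6% of all loci. The structural myelin genes also stood higher in PLM than in SNI, as given above. All 10 oligodendrocyte markers are also on the list of structural myelin genes, so the second reference largely repeats the first and is no separate support. Both references were chosen after the values had been seen, and the same PLM samples enter both comparisons.

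**Figure D5:**
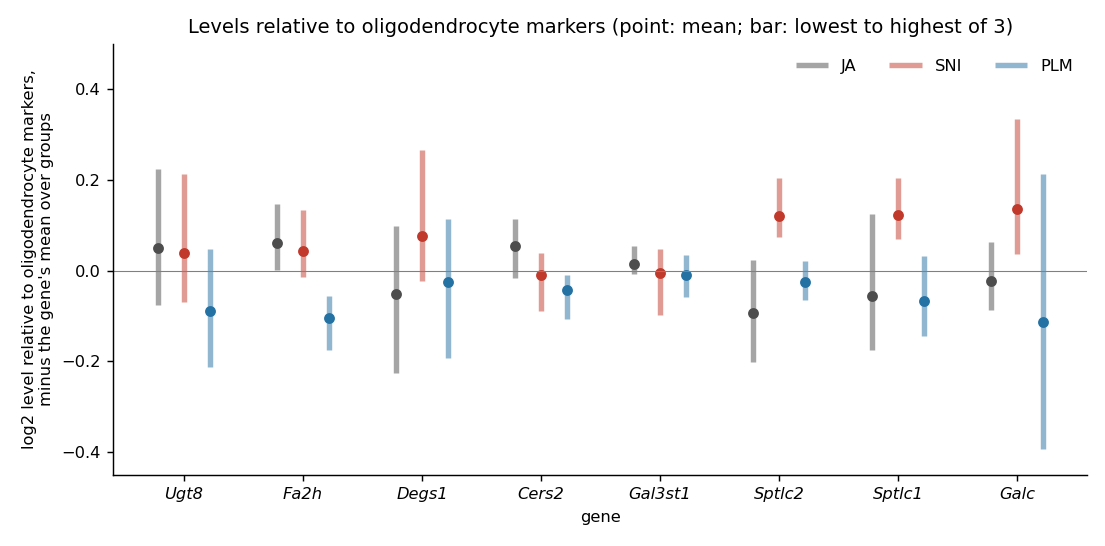
Log2 level of each of the 8 genes tested relative to the mean of 10 oligodendrocyte markers, minus the mean of the gene over the group means, with a point for the group mean and a bar from the lowest to the highest of 3 samples. For Fa2h the PLM bar lies below the JA and SNI bars, and for Ugt8, Degs1, Cers2, Gal3st1 and Galc all 3 groups overlap.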

How the data were processed

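Libraries were made with the TruSeq RNA kit. According to the study's methods and the submitters' processing notes, the authors trimmed reads with fastp 0.19.5, mapped them with HISAT2 v2.0 and computed expression with StringTie v1.3.3b; the notes name a human build although the identifiers are those of rat, so the rat build and annotation are not given in the sources used here. The authors deposited 1 table of TPM values whose totals lie between 999999.6 and 1000000.4 per sample, so the unit was read from the values. Whether counting used strand is not stated in these sources. In RefSeq Cers2 overlaps the protein-coding gene Setdb1 and Galc overlaps the protein-coding gene Gpr65. Sptlc2, Degs1 and Cers6 overlap long non-coding RNA genes and Ugt8 a pseudogene.

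Samples were grouped by their labels. Pairs of groups were compared with limma 3.58.1 (R 4.3.3, variance trend, no covariate) on log2(TPM + 1) for all loci whose mean in the 6 samples reached 1 TPM, as deposited and median-centred, with Benjamini-Hochberg adjustment over all loci. The fit was tested on simulated data. Ratios and correlations used exact permutation tests (SciPy 1.17.1). All 9 genes were named in every comparison; the rule named list genes past adjustment on both scales, of which there were none, and 5 like loci per arm. Alternatives were a pseudocount of 0.1, other filters, all 9 samples, the replicate block, other scalings and each sample left out. The genes, lists and markers were chosen with earlier results of these data known. DESeq2, which needs counts, was used by the authors and not here. Lipid and protein measurements were not analysed here.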

Additional observations from a re-analysis of the deposited data

How the results depend on the processing

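In each comparison and on both scales, 0 of 8 genes passed the adjusted threshold under every alternative except 1, the stricter filter of 5 TPM in PLM versus SNI as deposited, under which 1 gene (Sptlc1, adjusted p = 0.0489) passed. Fewer loci are tested and adjusted for there. Cers6 was under the filter and entered only the fits without one. With the replicate number as a block 0 of 8 genes passed, the loci called in PLM versus SNI fell from 2148 to 152 as deposited and from 126 to 0 centred, and same-numbered samples did not deviate together, so the number was not taken as a pairing. The loci called as deposited were also 1258 without a filter, 471 in the fit of all 9 samples, 155 after quantile normalization, 283 without mitochondrial genes, 12 without the samples highest in Schwann cell markers and 275 to 1494 with 1 sample left out. The 126 loci called centred were also 145 with a pseudocount of 0.1, 81 without a filter, 209 with the stricter filter, 0 in the fit of all 9 samples, 5 without the samples highest in Schwann cell markers and 0 (without SNI replicate 1) to 85 with 1 sample left out. The cause was not tested for these counts.

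The scaling turned the sign of some differences. In SNI versus JA the median of the 8 genes moved from -0.02 as deposited to -0.136 after quantile normalization, -0.106 without mitochondrial genes and -0.137 centred. Degs1 then turned to -0.063, -0.037 and -0.068, and under quantile normalization and centring Sptlc1 turned to -0.021 and -0.017 and Galc to -0.044 and -0.036. In PLM versus SNI the median moved from -0.22 to -0.012, -0.073 and 0.028 in the same order. Quantile normalization turned Degs1 to 0.0057, Cers2 to 0.076 and Gal3st1 to 0.134, rescaling without mitochondrial genes turned Cers2 to 0.031 and Gal3st1 to 0.059, and centring turned Sptlc2 to 0.019, Degs1 to 0.065, Cers2 to 0.131, Fa2h to 0.016, Ugt8 to 0.037 and Gal3st1 to 0.162. In PLM versus JA the median moved from -0.21 to -0.104 after quantile normalization and -0.088 centred, and Sptlc2 turned to 0.0073 and 0.036.

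On the centred scale Degs1 in PLM versus JA turned to 0.0059 with a pseudocount of 0.1 and to 0.165 without the samples highest in Schwann cell markers. That setting turned Sptlc2 to -0.085 and Degs1 to 0.046 in SNI versus JA. Leaving out 1 sample, the centred median ranged from -0.209 to -0.074 in SNI versus JA and from -0.172 to -0.045 in PLM versus JA. Differences that changed sign when 1 sample was left out ranged, in SNI versus JA, from -0.023 to 0.0998 for Degs1 as deposited and, centred, from -0.049 to 0.013 for Sptlc1, -0.043 to 0.063 for Sptlc2, -0.159 to 0.016 for Degs1 and -0.131 to 0.057 for Galc. In PLM versus SNI, centred, they ranged from -0.055 to 0.0048 for Sptlc1, -0.016 to 0.079 for Sptlc2, -0.017 to 0.079 for Fa2h, -0.030 to 0.143 for Ugt8 and -0.246 to 0.036 for Galc, and in PLM versus JA, centred, from -0.0055 to 0.084 for Sptlc2, -0.055 to 0.082 for Degs1 and -0.127 to 0.019 for Gal3st1. None of these values was called. The 4 pairs of genes past adjustment were 1 to 4 with 1 sample left out and 6 as deposited, among them Sptlc1 with Sptlc2. Depth cannot be read from TPM, so how far it limits these values is unknown.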
